A study of Mus musculus with 6 samples.

Results

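The genes described here encode the machinery that makes microRNAs and carries out their silencing. They are the 10 rows of the deposited count table with the symbols Drosha, Dgcr8, Xpo5, Dicer1, Tarbp2, Ago1, Ago2, Ago3, Tnrc6a and Tnrc6b, out of 24411 symbols. All 10 passed the filter on low counts, as did 13403 genes in total. A primary microRNA transcript is cut in the nucleus by the Microprocessor, formed by the nuclease Drosha and its RNA-binding partner Dgcr8. Exportin 5 (Xpo5) carries the resulting hairpin to the cytoplasm, where Dicer (Dicer1) and its partner Tarbp2 trim it to a duplex. An Argonaute protein keeps a single strand as a guide, and Tnrc6 proteins tie Argonaute to the enzymes that shorten and decay the target mRNA. In mice, removal of Dicer1 from microglia is known to alter their response to inflammatory stimuli.

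RNA was sequenced from microglia, the resident macrophages of the brain, isolated from C57BL/6J mice aged 8 weeks. The 6 libraries are 3 of Mir137 knockout (gKO) and 3 of wild-type (gWT) microglia, and the comparison asks how loss of miR-137 changes the transcriptome. The sources used here do not give how the Mir137 locus was altered. The study's design text names 4 mice without tying them to libraries, and a p-value therefore reflects only how these libraries varied, in part perhaps technically.

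The libraries held 14603884 to 17652976 expected counts. Mir137 (chromosome 3, 118433857 to 118433929) had 0 counts in all 6, so its row could not serve to check the genotype labels. Counts of Xist, transcribed from the inactive X chromosome, were 0, 0 and 8 in the gKO libraries, against 2519, 2000 and 1830 in the gWT libraries. Xist thus separated the groups completely, and in every gKO over gWT value below a difference in the sex of the mice cannot be told apart from the difference in genotype. The 10 microglial markers fixed for this purpose were all detected and summed to 41382 to 45446 CPM (counts normalised to the TMM-scaled library size) in gKO and 40272 to 43610 CPM in gWT. The summed level of 9 neutrophil markers was 550.0 to 1042 CPM in gKO and 275 to 345 CPM in gWT. That of 10 endothelial and mural markers was 359.6 to 498 CPM in gKO and 765 to 993 CPM in gWT, and that of 10 fibroblast and matrix markers was 460.0 to 644 CPM in gKO and 1350.2 to 1818 CPM in gWT. Astrocyte markers summed to 258 to 308 CPM in gKO and 360.2 to 402 CPM in gWT, oligodendrocyte markers to 376 to 444 CPM in gKO and 346 to 359.6 CPM in gWT, neuronal markers to 11.5 to 17.9 CPM in gKO and 10.9 to 18.04 CPM in gWT, and erythroid markers to 38.9 to 133 CPM in gKO and 77.8 to 100.04 CPM in gWT. Among the erythroid markers Hba-a1 was at 0 in all libraries, and no marker of the other lists was. The part of these cell types in the results below was not tested, and in bulk RNA fewer cells of a type and less RNA per cell cannot be told apart. In gKO replicate 3, levels departed from those of the remaining gKO libraries according to transcript length, so results are given with and without that library.

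The microRNA removed in gKO is shown with its seed, bases 2 to 8, in capitals, as given by RefSeq on GRCm38.p6 (chromosome 3, 118433901 to 118433923, plus strand). Its 7-letter complement AGCAATA was searched on the transcript strand of each gene's annotated 3′ UTR (the part of the mRNA after the coding sequence), since genes of the machinery could themselves carry sites for it. Of the 10 genes, 3 held the letters, shown in capitals with the surrounding bases from the GENCODE M21 transcripts:
mmu-miR-137-3p: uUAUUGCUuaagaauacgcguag
Ago1, base 4129 of 4491 of its 3′ UTR: ctggtgtcatAGCAATAaggaaa
Ago3, base 4917 of 12742: gtggttatatAGCAATAaaatat
Ago3, base 7286 of 12742: ctaattgaaaAGCAATAaaaagt
Ago3, base 9173 of 12742: tggtttttatAGCAATAcacttg
Tnrc6b, base 6100 of 11609: tccagttgtcAGCAATAgtattc

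The Ago1 site and the first 2 Ago3 sites are followed by an A, the form known as an 8mer. Among the 12501 tested genes with an annotated 3′ UTR, 9.63% held AGCAATA. The share was 26.2% of the 1742 genes with 3′ UTRs from 3000 to below 10000 bases, the class of Ago1, which held it, and of Dicer1, which did not. It was 70.0% of the 30 genes with 3′ UTRs of 10000 bases or more, the class of Ago3 and Tnrc6b, which held it, and of Ago2, which did not. A match is a run of letters and not a shown site of regulation.

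None of the 10 genes was called different between gKO and gWT by edgeR with all 6 libraries (adjusted p under 0.05), and 0 of them had an unadjusted p under 0.05. Over all 13403 tested genes, 84 (0.627%) were called and 1460 (10.9%) had an unadjusted p under 0.05. DESeq2, which called 2.46% of all genes it tested, also called 0 of the 10, as did limma-voom without (0.634%) and with (3.08%) sample quality weights. None of the 10 is in the authors' deposited tables of 75 genes higher and 201 genes lower in gKO. Every gene in those tables had more than a 2-fold change. By edgeR with all 6 libraries, the log2 fold changes of the 10 ran only from -0.67 to 0.13. Their absence from the authors' tables is therefore no separate evidence that they were unchanged. The median log2 fold change of the 10, gKO over gWT, was 0.01, and that of all tested genes was also 0.01. Of the 10, 5 were above 0, against 50.9% of all tested genes. Groups overlapped in CPM for each of the 10 genes, while they did not overlap for 21.3% of all tested genes. A 95% interval lying within a 2-fold change either way was obtained for 7 of the 10 (59.0% of all tested genes). For Xpo5, Ago2 and Ago3 the interval reached beyond a 2-fold decrease.

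**Figure D1:**
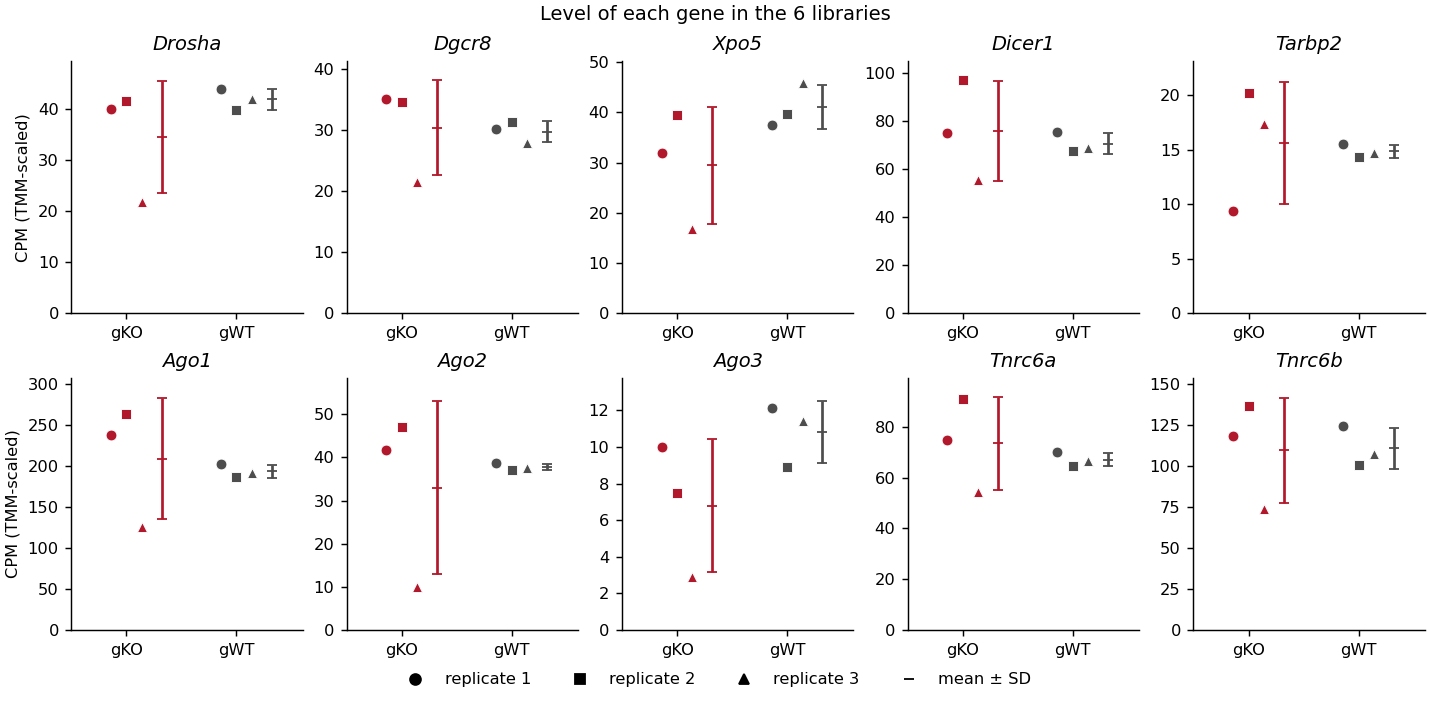
CPM of each of the 10 genes (vertical axes start at 0 and differ between panels) in gKO libraries (red, left) and gWT libraries (grey, right), with the replicate number as the symbol and the mean ± SD of 3 libraries beside the points. gKO replicate 3, the red triangle, is the lowest of the 6 libraries for 9 of the 10 genes, Tarbp2 being the exception.

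Drosha (chromosome 15, 12824815 to 12935291, GRCm38, plus strand), the nuclease that makes the first cut, had 40.1, 41.6 and 21.9 CPM in gKO replicates 1, 2 and 3, against 43.9, 39.8 and 42.0 CPM in gWT replicates 1, 2 and 3. gKO replicates 1 and 2 lay among the gWT values and replicate 3 well below them. The log2 fold change was -0.28 (SE 0.24, edgeR adjusted p = 0.755).

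Dgcr8 (chromosome 16, 18253948 to 18289246, minus strand), which recognizes the primary hairpin, had 35.1, 34.7 and 21.6 CPM in gKO replicates 1, 2 and 3, against 30.2, 31.4 and 27.9 CPM in gWT replicates 1, 2 and 3. The first 2 gKO libraries were above all gWT libraries and the third was below them. Its log2 fold change was 0.03 (SE 0.21, edgeR adjusted p = 0.976). The Dgcr8 mRNA is itself known to be cut by the Microprocessor at hairpins near its start. RefSeq places the precursors of miR-3618 and miR-1306 in exon 2 of its principal transcript, in the 5′ UTR and in coding sequence, and a mature strand of each is shown with its seed in capitals because these mark the parts of Dgcr8 that can be lost as microRNA:
mmu-miR-3618-5p (chromosome 16, 18284602 to 18284623, minus strand): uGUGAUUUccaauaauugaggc
mmu-miR-1306-5p (chromosome 16, 18284288 to 18284310, minus strand): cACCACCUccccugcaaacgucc

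Dgcr8 was the only 1 of the 10 genes with deposited counts that were not whole numbers. Its exons share 825 bases with those of Trmt2a, a tRNA methyltransferase gene on the opposite strand. The deposited counts of Dgcr8 in gKO libraries were 613.69, 505.38 and 304.89, against 512.3, 548.6 and 475.5 in gWT libraries. Those of Trmt2a were 1255.31, 1196.62 and 1045.11 in gKO libraries, against 1167.7, 1410.4 and 1489.5 in gWT libraries. Both genes together gave whole numbers in every library, 1869, 1702 and 1350.0 in gKO, against 1680.0, 1959 and 1965 in gWT. Reads were therefore divided between them, and the sources used here give no strand setting, so the level of Dgcr8 is uncertain. With the reads of both genes summed, an alternative chosen after the data were examined, the log2 fold change was -0.03 (SE 0.13, edgeR adjusted p = 0.958).

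Drosha and Dgcr8 work as a complex, so their ratio was compared as well. The log2 ratio of Drosha to Dgcr8 counts was 0.19, 0.26 and 0.02 in gKO replicates 1, 2 and 3, against 0.54, 0.35 and 0.59 in gWT replicates 1, 2 and 3. All gKO libraries were below all gWT libraries, with means of 0.16 ± 0.12 in gKO and 0.49 ± 0.13 in gWT (SD, n = 3 each). The difference of -0.33 had a two-sided exact permutation p of 0.1, the smallest that 3 against 3 libraries allow. It was -0.41 to -0.27 when any single library was left out. It inherits the uncertainty of the Dgcr8 counts.

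Xpo5 (chromosome 17, 46202782 to 46243598, plus strand), the exporter of precursor hairpins, had 32.01, 39.6 and 16.8 CPM in gKO replicates 1, 2 and 3, against 37.4, 39.7 and 45.9 CPM in gWT replicates 1, 2 and 3. gKO replicate 2 was within the gWT range, and replicates 1 and 3 were below it. With a log2 fold change of -0.48 (SE 0.29), it had the smallest unadjusted p of the 10 genes, 0.137, and an edgeR adjusted p of 0.624. The fold change was negative when any single library was left out, from -0.75 to -0.21, and it was called in none of these fits.

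In the cytoplasm, Dicer1 (chromosome 12, 104687742 to 104751952, minus strand), the nuclease that releases the duplex, had 75.2, 97.0 and 55.6 CPM in gKO replicates 1, 2 and 3, against 75.5, 67.7 and 69.1 CPM in gWT replicates 1, 2 and 3. gKO replicate 1 lay within the gWT range, replicate 2 above it and replicate 3 below it. The log2 fold change was 0.10 (SE 0.20, edgeR adjusted p = 0.907).

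Tarbp2 (chromosome 15, 102518192 to 102523676, plus strand), a double-stranded RNA binding protein that assists Dicer, had 9.39, 20.2 and 17.3 CPM in gKO replicates 1, 2 and 3, against 15.5, 14.3 and 14.7 CPM in gWT replicates 1, 2 and 3. The lowest library here was gKO replicate 1 and not replicate 3, which was above all gWT libraries. The log2 fold change was 0.07 (SE 0.29, edgeR adjusted p = 0.954). The log2 ratio of Dicer1 to Tarbp2 counts was 3.002, 2.27 and 1.68 in gKO replicates 1, 2 and 3, against 2.29, 2.24 and 2.23 in gWT replicates 1, 2 and 3. The gWT ratios were nearly equal, with an SD of 0.03, and the gKO ratios were spread around them, with an SD of 0.66. The difference was 0.06 (two-sided exact permutation p = 0.8), and its sign depended on the libraries used, being -0.28 without gKO replicate 1.

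Among the Argonautes, which hold the guide strand, Ago1 (chromosome 4, 126435012 to 126468583, minus strand) had 238, 264 and 126 CPM in gKO replicates 1, 2 and 3, against 202, 187 and 191 CPM in gWT replicates 1, 2 and 3. gKO replicates 1 and 2 exceeded all gWT libraries and replicate 3 was below all of them. The log2 fold change with all 6 libraries was 0.11 (SE 0.25, edgeR adjusted p = 0.918).

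Ago2 (chromosome 15, 73095844 to 73184935, minus strand), the mammalian Argonaute best known for slicing fully paired targets, had 41.7, 47.1 and 10.04 CPM in gKO replicates 1, 2 and 3, from 728, 687 and 142 counts. The gWT replicates had 38.6, 37.1 and 37.5 CPM, from 655, 649 and 641 counts. The gWT libraries differed little, 2 gKO libraries were slightly above them, and gKO replicate 3 was at 22.6% of the mean of the other gKO libraries. The log2 fold change was -0.19 (SE 0.46, edgeR adjusted p = 0.921), with a 95% interval from -1.25 to 0.86.

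Ago3 (chromosome 4, 126331704 to 126429556, minus strand), a neighbour of Ago1, was the least abundant per length of the 10 genes, with 10.02, 7.48 and 2.90 CPM in gKO replicates 1, 2 and 3, against 12.1, 8.92 and 11.4 CPM in gWT replicates 1, 2 and 3. The groups overlapped only through gKO replicate 1. Its log2 fold change of -0.67 (SE 0.42, edgeR adjusted p = 0.639) was the most negative of the 10, and its 95% interval ran from -1.63 to 0.30. The paralog Ago4 of the same cluster, not among the 10, had 13.97, 26.4 and 8.41 CPM in gKO and 16.5, 13.0 and 12.1 CPM in gWT (log2 fold change 0.23, SE 0.39, edgeR adjusted p = 0.887).

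Tnrc6a (chromosome 7, 123123885 to 123195296, plus strand) and Tnrc6b (chromosome 15, 80711313 to 80941085, plus strand) encode the GW182 proteins that bind Argonaute. Tnrc6a had 74.9, 91.1 and 54.4 CPM in gKO replicates 1, 2 and 3, against 69.9, 64.7 and 66.7 CPM in gWT replicates 1, 2 and 3 (log2 fold change 0.13, SE 0.19, edgeR adjusted p = 0.863). Tnrc6b had 118, 136 and 74.0 CPM in gKO replicates 1, 2 and 3, against 125, 101 and 107 CPM in gWT replicates 1, 2 and 3 (log2 fold change -0.02, SE 0.22, edgeR adjusted p = 0.988). gKO replicate 3 was below all gWT libraries for both genes. gKO replicates 1 and 2 were above all gWT libraries for Tnrc6a, and gKO replicate 2 alone was for Tnrc6b. The third paralog, Tnrc6c, had 79.4, 68.5 and 47.0 CPM in gKO and 52.9, 60.5 and 58.6 CPM in gWT (log2 fold change 0.18, SE 0.20, edgeR adjusted p = 0.809).

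Levels of different genes were compared per kilobase of the principal GENCODE M21 transcript. Ago1 was highest, at 28.9 ± 10.2 CPM per kilobase in gKO and 26.8 ± 1.11 in gWT (SD, n = 3 each). In gWT it was followed by Tarbp2 (9.74 ± 0.403), Drosha (9.17 ± 0.445), Tnrc6a (8.20 ± 0.324), Xpo5 (8.07 ± 0.866), Dicer1 (7.18 ± 0.426), Dgcr8 (6.90 ± 0.413) and Tnrc6b (6.40 ± 0.715). Ago2 (2.73 ± 0.0558) and Ago3 (0.694 ± 0.108) were lowest. Between neighbours in this gWT order, library ranges did not overlap from Ago1 to Tarbp2, from Drosha to Tnrc6a, from Tnrc6b to Ago2 and from Ago2 to Ago3, and the other neighbours overlapped. In gKO the order was Ago1, Tarbp2 (10.3 ± 3.67), Tnrc6a (8.98 ± 2.24), Dicer1 (7.71 ± 2.10), Drosha (7.55 ± 2.39), Dgcr8 (7.05 ± 1.78), Tnrc6b (6.33 ± 1.85), Xpo5 (5.80 ± 2.28), Ago2 (2.39 ± 1.45) and Ago3 (0.436 ± 0.231). There, the ranges of neighbours were separate only from Ago1 to Tarbp2 and from Ago2 to Ago3. With the merged exons of all transcripts as the length, Tarbp2 dropped to rank 8 in both groups, while Ago1 stayed at rank 1, Ago2 at rank 9 and Ago3 at rank 10.

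Ago1 thus made up most of the Argonaute mRNA. Of the summed CPM per kilobase of Ago1 to Ago4, Ago1 held 85.0%, 82.2% and 88.8% in gKO replicates 1, 2 and 3, against 82.1%, 83.1% and 83.3% in gWT replicates 1, 2 and 3. Ago2 held 7.81%, 7.68% and 3.71% in gKO, against 8.20%, 8.65% and 8.56% in gWT. With no division by length, Ago1 held 80.1 ± 4.74% in gKO and 75.6 ± 0.498% in gWT, and Ago2 held 11.4 ± 3.97% in gKO and 14.8 ± 0.401% in gWT (SD, n = 3 each). The share of Ago2 per length was lower in each gKO library than in each gWT library, with a mean difference of -2.07 percentage points (two-sided exact permutation p = 0.1, the smallest possible). Without gKO replicate 3 the difference was -0.73 percentage points. In the Tnrc6 family, shares were more even: Tnrc6a held 39.8 ± 2.68% in gKO and 38.9 ± 0.451% in gWT, Tnrc6b 27.7 ± 1.595% in gKO and 30.3 ± 2.52% in gWT, and Tnrc6c 32.5 ± 3.50% in gKO and 30.8 ± 2.96% in gWT (SD, n = 3 each). RSEM-type estimates can divide reads between such paralogs, but the deposited counts of all Argonaute and Tnrc6 genes were whole numbers.

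**Figure D2:**
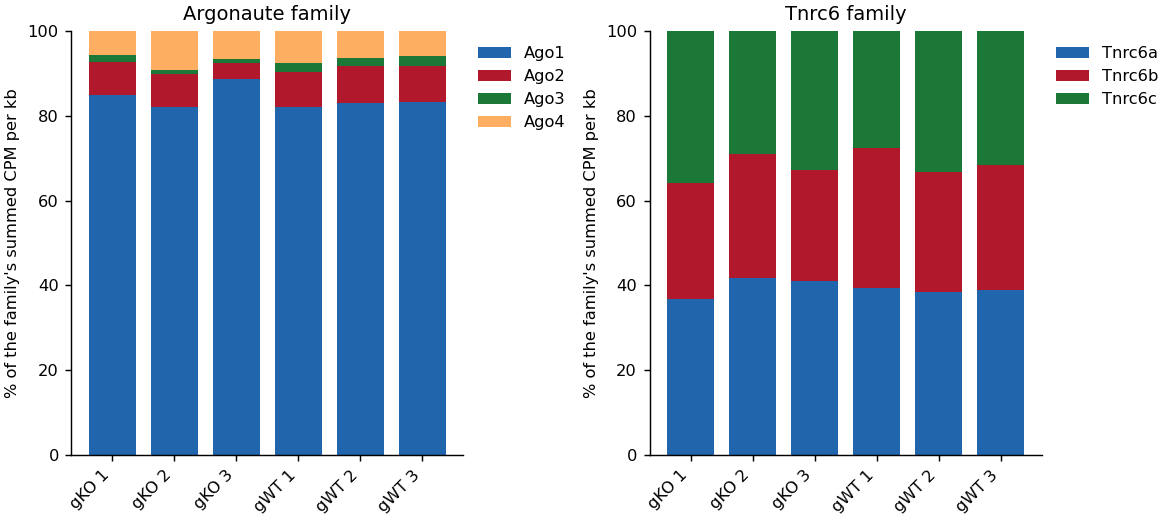
Share of each paralog in the summed CPM per kilobase of its family (vertical axis, percent) for the 6 libraries (horizontal axis, gKO left of gWT). Ago1 takes 82.1% to 88.8% of the Argonaute bar in every library, the Ago2 segment is smallest in gKO replicate 3 (3.71%), and the 3 Tnrc6 genes share their bar more evenly.

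The spread within groups differed more than the means. The SD over gKO libraries exceeded that over gWT libraries for all 10 genes, against 78.3% of all tested genes. The coefficient of variation (SD as a percentage of the mean) of the 10 ranged from 24.99% to 60.8% in gKO and from 2.04% to 15.6% in gWT. Its median over the 10 was 33.4% in gKO and 5.39% in gWT, and over all tested genes it was 26.6% in gKO and 11.1% in gWT. gKO replicate 3 was the lowest of the 6 libraries for 9 of the 10 genes, against 31.8% of all tested genes and 56.3% of the 4217 tested genes with transcripts of at least 4000 bases. gKO replicate 2 was the highest library for 6 of the 10, against 18.7% of all tested genes. For gKO replicate 2 the share among transcripts of at least 4000 bases, the class of 9 of the 10, was not computed.

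Of the 10 genes, 9 have long transcripts, of at least 4000 bases. Lengths ran from 1523 bases for Tarbp2 to 17332 bases for Tnrc6b. Their median was 7705 bases, against 3042 bases for all 12922 tested genes with a length. In gKO replicate 3, log2 CPM minus the mean of gKO replicates 1 and 2 declined with length over all genes: its median was 0.91 in the shortest of 10 equal classes and -0.69 in the longest. The correlation across genes was -0.55 (Spearman's rho, a description, since genes are not independent replicates). Tarbp2, the only 1 of the 10 with a transcript under 4000 bases, had a value of 0.33. The others ranged from -0.60 for Tnrc6a to -2.13 for Ago2. Dicer1 (-0.62), Tnrc6a and Tnrc6b (-0.78) lay within 0.1 of the median of their length class. Ago2 lay 1.44 below it (-1.44), lower than all but 6.88% of the genes in its class, and Ago3, at -1.54, lower than all but 12.9%. The 3′ UTR makes up 80.2% of the Ago2 transcript and 81.7% of that of Ago3, the highest shares of the 10. The difference from the class median was -0.09 for Tnrc6b (3′ UTR 67.0%) and -0.31 for Ago1 (62.1%). It was -0.63 for Xpo5 (26.1%) and -0.55 for Drosha (3.68%). A relation to this share was not tested. The source of the dependence of gKO replicate 3 on length was not tested either.

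**Figure D3:**
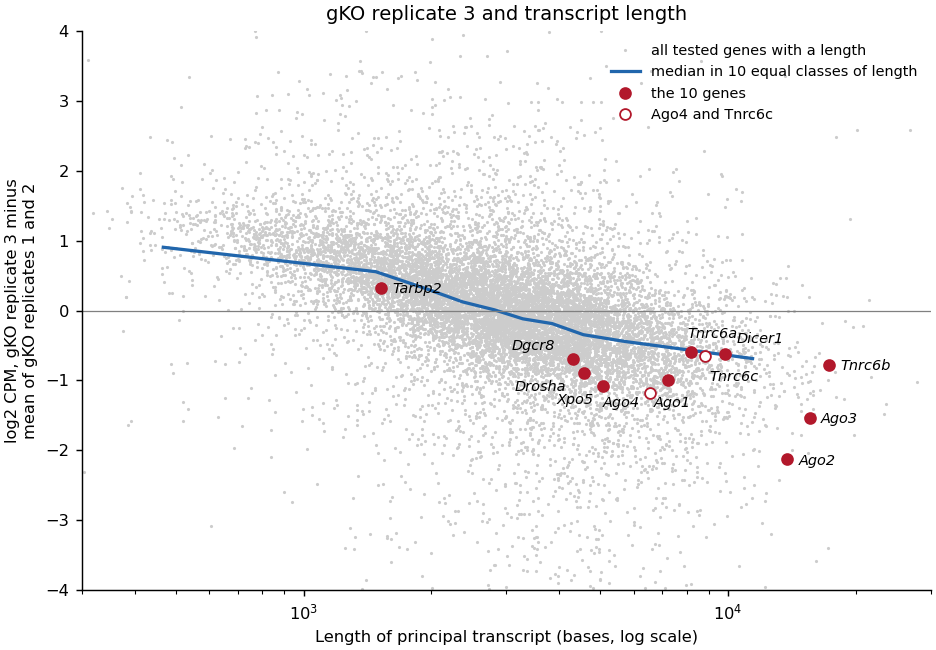
Log2 CPM of gKO replicate 3 minus the mean of gKO replicates 1 and 2 (vertical axis) against the length of the principal transcript in bases (log axis), for all tested genes (grey points), the 10 genes (red) and Ago4 and Tnrc6c (open circles). The blue line joins the medians of 10 equal length classes, from 0.91 to -0.69, and Ago2 (-2.13) and Ago3 (-1.54) lie furthest below it.

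Without gKO replicate 3, Ago1 was the only 1 of the 10 genes called. Its level in gKO replicates 1 and 2 was 1.29-fold that in the 3 gWT libraries (log2 fold change 0.36, SE 0.07, edgeR adjusted p = 0.00830). In that fit 7.81% of 13814 tested genes were called, 3.99% as higher, so 1 of 10 is near the background. Dicer1 (0.27 on the log2 scale, SE 0.12, edgeR adjusted p = 0.172) and Tnrc6a (0.30, SE 0.11, edgeR adjusted p = 0.111) had unadjusted p-values under 0.05 there, as did 23.2% of all tested genes. The fold changes of Ago2 (0.22), Tnrc6b (0.19) and Dgcr8 (0.22) were positive, those of Xpo5 (-0.21) and Ago3 (-0.31) negative, and those of Drosha (-0.05) and Tarbp2 (-0.02) close to 0. The median of the 10 was 0.20, against -0.02 for all tested genes. In CPM, gKO replicates 1 and 2 both exceeded every gWT library for Dgcr8, Ago1, Ago2 and Tnrc6a, that is for 4 of the 10, against 20.1% of all tested genes. The share among genes of similar length was not computed, and the level of Dgcr8 is uncertain, as described above. Ago1 was called in no other fit. Its log2 fold change was 0.31 by limma-voom with sample quality weights (95% interval 0.04 to 0.57, limma adjusted p = 0.215), where it was the only 1 of the 10 with an unadjusted p under 0.05. It was -0.09 without gKO replicate 2, and 0.17 (edgeR adjusted p = 0.525) when the trend of each library with transcript length was removed. In the length-corrected fit the 10 genes had a median of 0.03 and 0 were called, against 2.11% of all tested genes.

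**Figure D4:**
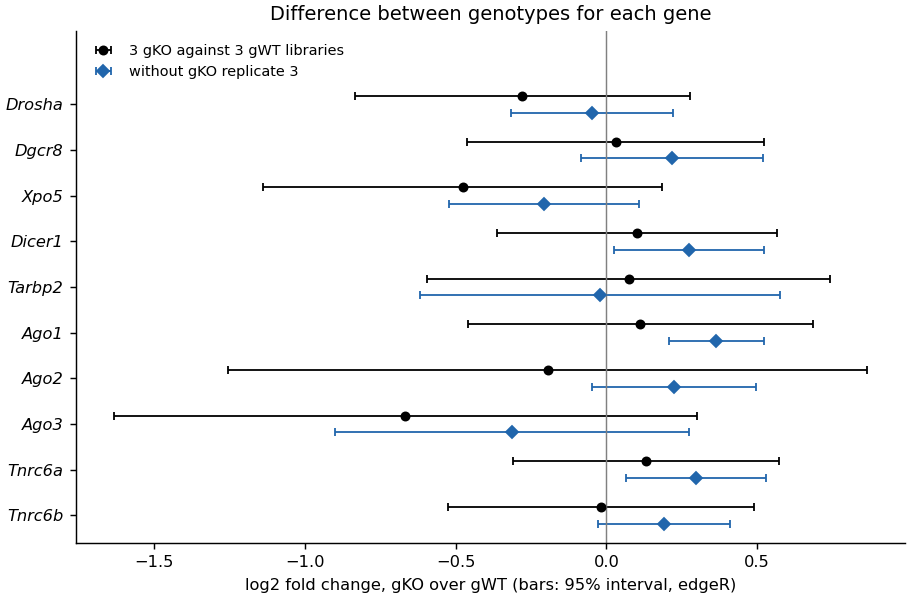
Log2 fold change, gKO over gWT (horizontal axis), with the 95% interval of edgeR's quasi-likelihood fit for each of the 10 genes, with all 6 libraries (black circles) and without gKO replicate 3 (blue diamonds). All black intervals include 0, and without gKO replicate 3 the intervals are narrower and those of Ago1, Dicer1 and Tnrc6a lie above 0.

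The wider pathway was read from 6 lists with 63 other genes, all of which were tested. EdgeR with all 6 libraries called 0 of the 63, with 4 at an unadjusted p under 0.05, against 0.627% called and 10.9% at that p over all tested genes. Without gKO replicate 3 it called 4 as higher and 0 as lower, against 3.99% higher and 3.82% lower over all tested genes.

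The subunits of the deadenylases, the enzymes that Tnrc6 proteins recruit to shorten poly(A) tails, had a median log2 fold change of 0.22, with 10 of 13 above 0. Over all tested genes the median was 0.01, with 50.9% above 0. Without gKO replicate 3 the median of the 13 was 0.16, against -0.02 over all tested genes. Cnot2, a scaffold subunit of the CCR4-NOT complex, had 121, 122 and 113 CPM in gKO replicates 1, 2 and 3, against 78.2, 93.3 and 83.2 CPM in gWT replicates 1, 2 and 3. All gKO libraries were above all gWT libraries, gKO replicate 3 included, and the log2 fold change was 0.48 (SE 0.13, edgeR adjusted p = 0.194). Without gKO replicate 3 it was 0.51 (SE 0.09, edgeR adjusted p = 0.00417). Cnot6l, a catalytic deadenylase subunit, had a log2 fold change of 0.30 (SE 0.12, edgeR adjusted p = 0.430).

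The decapping and decay list of 13 genes had a median of 0.02. Lsm14a, a component of cytoplasmic P-bodies, had 161, 167 and 199 CPM in gKO replicates 1, 2 and 3, against 129.98, 128 and 125 CPM in gWT replicates 1, 2 and 3. Its groups did not overlap either, as was so for 21.3% of all tested genes. The log2 fold change was 0.46 (SE 0.13, edgeR adjusted p = 0.221), or 0.35 (SE 0.07, edgeR adjusted p = 0.0106) without gKO replicate 3. Edc4, a decapping scaffold, had a log2 fold change of -0.35 (SE 0.23, edgeR adjusted p = 0.652). Ddx6, the helicase that links CCR4-NOT to decapping, is named after its values were seen because it was called without gKO replicate 3 (0.26, SE 0.06, edgeR adjusted p = 0.0218). Its log2 fold change with all libraries was 0.02.

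The 11 Microprocessor cofactors had a median log2 fold change of 0.04. The RNA helicase Ddx5 had 1255, 1390.0 and 1508 CPM in gKO replicates 1, 2 and 3, against 1104, 1130.1 and 1120.5 CPM in gWT replicates 1, 2 and 3 (log2 fold change 0.31, SE 0.12, edgeR adjusted p = 0.405). It was 0.23 (SE 0.06, edgeR adjusted p = 0.0249) without gKO replicate 3. Mettl3, the RNA adenosine methyltransferase, had a value of -0.29 (SE 0.19, edgeR adjusted p = 0.643). The 12 genes of export, dicing and Argonaute loading had a median of 0.00, with the smallest p for the cochaperone Fkbp4 (-0.22, SE 0.12, edgeR adjusted p = 0.574), followed by Ran, the GTPase that drives Exportin 5 (0.26, SE 0.21, edgeR adjusted p = 0.731). Ran had 164, 157 and 271 CPM in gKO replicates 1, 2 and 3, against 166, 171 and 158 CPM in gWT replicates 1, 2 and 3, and its log2 fold change was -0.04 without gKO replicate 3. The 12 genes that tail or degrade microRNAs and their precursors, or regulate Argonaute, had a median of 0.09. The poly(A) polymerase Papd4 had a log2 fold change of 0.37 (SE 0.18, edgeR adjusted p = 0.504) and the RNase Zc3h12a of 0.32 (SE 0.20, edgeR adjusted p = 0.632). Besides Cnot2 and Lsm14a, groups were separate in CPM for Cnot6l, Ddx5 and Papd4, higher in gKO. They were also separate for Mettl3 and Fkbp4, lower in gKO. These genes were named for the smallest p of their lists, a choice that favours separate groups.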

How the data were processed

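The authors deposited expected counts by gene symbol for 3 gKO and 3 gWT libraries, and lists of their differential genes. Per the submitters' processing notes the tools were STAR 2.7.9a, RSEM and DESeq2 with GRCm38 and mm10. In the authors' deposited lists the file headers name a normalized mean signal, log2 fold changes with their errors, a test score and p-values. Only the presence of genes and the smallest listed fold changes were used. For testing, edgeR 4.0.16 (R 4.3.3) was run on rounded counts (TMM, default filter, robust quasi-likelihood test on genotype, Benjamini-Hochberg over 13403 genes). SEs are the absolute log2 fold change over the square root of F, and 95% intervals use edgeR's degrees of freedom. DESeq2 1.42.0 and limma 3.58.1 were alternatives, as were RLE and upper-quartile scaling, other filters, blocking on replicate number, leaving out single libraries, and removal of each library's lowess trend with transcript length (span 0.4). Log2 CPM used a prior count of 2. Of 24411 symbols, 23365 matched GENCODE M21 by name for lengths and UTRs. Marker lists covered microglia, neutrophils, endothelial and mural cells, fibroblasts, astrocytes, oligodendrocytes, neurons and erythroid cells.

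The 10 genes and all lists were chosen with earlier results of these data known. Besides the 10, the text names Ago4, Tnrc6c, the called genes of each pathway list or else the 2 with the smallest p, and the 3 genes most like the member with the smallest p. In a test on simulated data (gKO over gWT, 5 draws, median 13054 genes), recovery was 0.915% for 1.5-fold, 26.1% for 2-fold and 71.9% for 4-fold changes, with 6.82% false among 352 calls. Each gene was drawn independently, with its spread taken from the fit with all 6 libraries. No simulated library held a trend with transcript length, unlike gKO replicate 3, so these figures may not hold for the real libraries.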

Additional observations from a re-analysis of the deposited data

How the results depend on the processing

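The count of called genes, 84 with all 6 libraries, was 391 by DESeq2, 413 by limma-voom with sample quality weights, 283 with the length trend removed, 18 with the replicate block, and 0 to 1079 when a single library was left out. It was 0 without any 1 gWT library, where 729 to 921 genes had an unadjusted p under 0.05, 5 without gKO replicate 1 or 2, and 1079 without gKO replicate 3. The number called among the 10 genes was 0 to 1 over those fits and 0 in the others, and their median log2 fold change lay between -0.18 without gKO replicate 2 and 0.20 without gKO replicate 3. Paired replicate numbers had no basis in the labels, and deviations of same-numbered libraries correlated at 0.05, -0.05 and 0.02.

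Log2 fold changes near 0 changed sign with the setting, none of them called. Dgcr8 was at -0.00967 with upper-quartile scaling, -2.45e-05 with the replicate block and -0.0306 with Trmt2a reads added, an alternative chosen after seeing the data. Tarbp2 was at -0.0275 by limma-voom and -0.10 with quality weights, Ago2 at 0.0771 with quality weights, and Tnrc6b at 0.17 with quality weights and 0.15 with the length trend removed; the cause was not tested. With single libraries left out, the ranges were -0.44 to -0.05 for Drosha, -0.0872 to 0.22 for Dgcr8, -0.75 to -0.21 for Xpo5, -0.11 to 0.27 for Dicer1, -0.16 to 0.34 for Tarbp2, -0.0925 to 0.36 for Ago1, -0.54 to 0.22 for Ago2, -1.06 to -0.31 for Ago3, -0.0544 to 0.30 for Tnrc6a and -0.21 to 0.19 for Tnrc6b. The ratio of Dicer1 to Tarbp2 ranged from -0.28 to 0.38 and the Ago2 share from -2.78 to -0.73 percentage points. In the simulations, changes of 1.5-fold were mostly missed. Whether depth, the number of libraries or the spread among them set this limit was not tested. In the fit without gKO replicate 3, Ago1 was called at 1.29-fold, alone among the 10 genes, where 7.81% of all tested genes were called.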

Other observations

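Xpo5 had the smallest unadjusted p of the 10 genes, and the tested genes outside them with the most similar profile over the 6 libraries were Zfp862-ps, a pseudogene by its symbol, Kif1c, a kinesin motor gene, and Sgsh, a lysosomal sulfatase gene. The root mean square difference from Xpo5 in log2 CPM, centred on each gene's mean, was 0.0564 for Zfp862-ps, 0.0787 for Kif1c and 0.0863 for Sgsh. Among the other 9 genes of the machinery, Drosha was closest to Xpo5, at 0.18. Kif1c had 82.4, 92.5 and 43.1 CPM in gKO replicates 1, 2 and 3, against 102, 98.3 and 107 CPM in gWT replicates 1, 2 and 3. Its low point in gKO replicate 3 follows from the choice by likeness to Xpo5 and is no separate observation.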
